A study of Mus musculus with 3 samples.

Results

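The Hippo-YAP genes described here are 10 members, chosen by symbol from the 32285 mouse genes of the count matrices. They are the coactivators *Yap1* (ENSMUSG00000053110) and *Wwtr1* (ENSMUSG00000027803, the gene for TAZ), the DNA-binding partners *Tead1* (ENSMUSG00000055320) and *Tead2* (ENSMUSG00000030796), the kinases *Lats1* (ENSMUSG00000040021) and *Lats2* (ENSMUSG00000021959), and the target genes *Ccn1* (ENSMUSG00000028195), *Ccn2* (ENSMUSG00000019997), *Amotl2* (ENSMUSG00000032531) and *Ankrd1* (ENSMUSG00000024803). Their transcripts were counted in Müller glia (MG), the radial glia of the retina, from mice of genotype Glast-CreERT2; R26-CAG-LSL-Tdt. Tamoxifen (75 mg/kg from P20) switched on tdTomato in cells that express the glutamate transporter Glast, a marker that astrocytes share with MG, and tdTomato+ cells were sorted from 2 to 4 pooled retinas at P51. All 3 groups received an AAV7m8 vector in the eye at P28, with expression driven by a GFAP promoter. The control library is from AAV7m8-GFAP-GFP-LacZsh alone. Vector and tamoxifen are given here as in the labels, while the study's methods name a non-target shRNA and give another tamoxifen dose and start. The CCA (cell cycle activator) library is from AAV7m8-GFAP-cyclinD1-p27sh, which adds cyclin D1 and knocks down p27Kip1, mixed 9:1 with the control vector. In the CCANT library, retinas had CCA followed by NMDA, which injures retinal neurons, at P35 and trichostatin A (TSA), a histone deacetylase inhibitor, at P37. The question is whether the transcripts of a pathway known to hold back glial division differ once MG are pushed back into the cell cycle.

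The Hippo pathway is a kinase cascade that limits growth. LATS1 and LATS2 phosphorylate YAP and TAZ, which keeps both coactivators out of the nucleus. When the kinases are inactive, YAP and TAZ bind TEAD proteins on DNA and switch on genes such as *Ccn1*, *Ccn2*, *Amotl2* and *Ankrd1*. In adult mouse MG, this kinase activity is known to restrain YAP after injury and so to limit return to the cell cycle. Because the pathway acts through phosphorylation and location of the proteins, the transcript levels below describe the supply of its parts and the output of its target genes, and not YAP activity itself.

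Each library held between 219051219 and 224515457 unique molecular identifiers (UMIs, each standing for 1 captured transcript), and the cells that the authors kept numbered 3758 for control, 3890 for CCA and 3278 for CCANT. Median depth was 24236 UMIs per kept cell for control, 20711 for CCA and 20722 for CCANT. The libraries shared 2 to 8 cell barcodes pairwise. The 9 MG markers (such as *Glul*, *Rlbp1* and *Aqp4*) were all detected and summed to between 26388 and 28694 CPM (UMIs of a gene in every 1000000 UMIs of the cells considered). *Apoe* alone made up 9254 CPM of this sum for control, 11200 for CCA and 13365 for CCANT. The sum does not identify MG by itself, since the list reached 29148 CPM in CCANT cells named microglia and macrophages by their markers. The label of MG did not hold alike for all kept cells. In a cluster with markers of both MG and rods, whose leading class was rods, lay 32 control, 209 CCA and 431 CCANT cells. A further 9, 29 and 14 lay in an unnamed cluster of shallow cells whose highest marker list was that of rods. The markers also left unnamed a cluster of 969 cells led by *Fosl1* and another of 214 cells led by *Cenpf* and *Top2a*. The highest marker list was that of MG in the *Fosl1* cluster. In the *Cenpf* and *Top2a* cluster it was that of T and NK cells, with MG second. p27Kip1 transcripts (*Cdkn1b*) fell from 225.9 CPM for control to 84.4 for CCA and 105.7 for CCANT. Cells with at least 1 UMI of *Mki67* or *Top2a*, both proliferation genes, made up 1.12% of kept cells for control, 19.3% for CCA and 9.12% for CCANT. With 1 library per group there was no test between groups and no p-value: the 95% interval given after a ratio is the exact one for Poisson counts, that of a share is Clopper-Pearson, and both cover counting error only. Treatment, pool of mice and library preparation cannot be told apart.

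Promoter sequences were read for 8 of the 10 members from RefSeq on GRCm38.p6, as 300 bases from 250 before to 50 after the transcription start. *Tead1* and *Ccn2* had no entry. The TEAD core GGAATG, searched on both strands, occurred in 7 of the 10 entries of these members (6 of the 8 members, since both *Wwtr1* entries overlap and hold the same core), and in 14.7% of all 32851 promoters of the same length. The AP-1 motif TGANTCA was in 0 of the 10 entries and in 7.81% of all promoters, and the SRF CArG box was in 0 of the 10 entries and in 1.63% of all promoters. A match is a stretch of letters and not a shown binding site. The promoters of 3 target genes and of *Yap1* are printed 5′ to 3′ on the strand of the gene because all 4 hold the TEAD core, which is in capitals and reads CATTCC where it lies on the opposite strand.
Ccn1 promoter, chr3:145649936-145650235, minus strand, core at -103: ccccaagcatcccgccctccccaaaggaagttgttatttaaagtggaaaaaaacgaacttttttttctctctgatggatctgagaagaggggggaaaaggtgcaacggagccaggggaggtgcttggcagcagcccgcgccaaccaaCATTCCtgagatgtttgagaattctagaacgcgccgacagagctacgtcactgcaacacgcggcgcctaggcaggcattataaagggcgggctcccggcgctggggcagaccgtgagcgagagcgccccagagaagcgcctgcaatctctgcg
Amotl2 promoter, chr9:102717554-102717853, plus strand, core at -65: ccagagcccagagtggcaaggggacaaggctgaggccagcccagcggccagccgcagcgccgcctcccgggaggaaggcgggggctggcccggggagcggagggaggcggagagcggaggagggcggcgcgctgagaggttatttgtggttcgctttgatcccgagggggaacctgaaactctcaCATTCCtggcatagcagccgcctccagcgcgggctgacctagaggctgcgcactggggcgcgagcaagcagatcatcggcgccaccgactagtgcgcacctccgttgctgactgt
Ankrd1 promoter, chr19:36119795-36120094, minus strand, cores at -210 and -123: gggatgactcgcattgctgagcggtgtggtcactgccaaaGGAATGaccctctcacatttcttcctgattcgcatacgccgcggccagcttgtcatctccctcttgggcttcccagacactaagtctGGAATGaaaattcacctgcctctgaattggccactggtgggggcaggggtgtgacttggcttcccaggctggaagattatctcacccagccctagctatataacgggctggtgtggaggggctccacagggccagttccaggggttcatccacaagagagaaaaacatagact
Yap1 promoter, chr9:8004547-8004846, minus strand, core at -141: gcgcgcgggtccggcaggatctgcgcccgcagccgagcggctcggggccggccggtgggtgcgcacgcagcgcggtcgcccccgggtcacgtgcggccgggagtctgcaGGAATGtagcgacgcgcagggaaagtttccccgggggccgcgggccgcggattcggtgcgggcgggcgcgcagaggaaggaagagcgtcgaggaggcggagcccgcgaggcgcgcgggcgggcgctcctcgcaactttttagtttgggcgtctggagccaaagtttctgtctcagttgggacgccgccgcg

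Both coactivator genes changed little between libraries. The level of *Yap1* was 66.3 CPM for control, 60.4 for CCA and 62.9 for CCANT cells. Relative to control this is a log2 ratio of -0.13 for CCA (95% interval -0.19 to -0.08) and of -0.08 for CCANT (-0.13 to -0.02), so both treated libraries lay slightly below the control. *Wwtr1* lay on the other side, at 165.4 CPM for control, 188.7 for CCA and 187.0 for CCANT cells, a log2 ratio of 0.19 (0.16 to 0.22) when CCA is set against control and 0.18 (0.14 to 0.21) when CCANT is. In kept cells with at least 8000 UMIs, thinned to that number, *Yap1* was seen in 39.2% of 3722 control, 35.9% of 3787 CCA and 38.0% of 3225 CCANT cells, which leaves out 36, 103 and 53 shallower cells. Over all kept cells without thinning the shares were 74.9%, 65.2% and 69.2%. All of these differences between libraries were far below 1.5-fold, the size at which a gene is counted as called here.

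Of the DNA-binding partners, *Tead1* was at 231.0 CPM for control, 230.9 for CCA and 240.7 for CCANT cells. *Tead2*, a family member active in progenitor cells, was at 30.1, 29.99 and 31.4 CPM. The log2 ratio of CCA over control had an interval of -0.03 to 0.03 for *Tead1* and of -0.09 to 0.07 for *Tead2*, so a change as large as 0.1 on the log2 scale lay outside what counting error allows for both genes in these libraries. The kinases moved slightly in opposite directions. *Lats1* went from 47.9 CPM for control to 43.9 for CCA and 42.3 for CCANT, a log2 ratio of -0.13 (-0.19 to -0.06) when CCA is set against control and -0.18 (-0.25 to -0.11) when CCANT is. *Lats2*, itself a gene that YAP can induce, went from 34.4 to 39.4 and 38.5 CPM, or 0.20 (0.13 to 0.27) and 0.16 (0.09 to 0.23) on the same scale.

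The larger differences were in the target genes. *Ccn1* encodes a secreted matrix protein (CYR61). Its level was 375.9 CPM for control, 722.8 for CCA and 694.2 for CCANT cells, a rise of 1.92-fold and 1.85-fold (log2 ratios 0.94, 0.92 to 0.96, and 0.89, 0.87 to 0.90). *Ccn2*, which encodes connective tissue growth factor, was at 66.3 CPM for control, 103.6 for CCA and 104.0 for CCANT cells, which is 1.56-fold and 1.57-fold higher (log2 ratios 0.64, 0.60 to 0.69, and 0.65, 0.60 to 0.70). *Amotl2*, which encodes an angiomotin that binds YAP and holds it back, was at 44.4, 63.6 and 56.5 CPM, a log2 ratio of 0.52 (0.46 to 0.58) when CCA is set against control and 0.35 (0.28 to 0.41) when CCANT is, below the 1.5-fold limit. Over the alternatives its CCA ratio ranged from 0.43 to 0.66, and it passed the limit by the mean of the cells' own CPM. All 3 genes were lowest in control cells.

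*Ankrd1*, a classical YAP target in muscle, was close to absent. The kept cells held 0 UMIs for control, 9 for CCA and 0 for CCANT, where a count of 0, taken to allow up to 3 UMIs, puts the limit at 0.0314 CPM for control and 0.0424 for CCANT. The 9 UMIs lay in 3 cells, of which 1 held 7. No fold is given for this gene, and it was left out of the counts below because it did not reach 5 CPM on average and 50 UMIs.

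**Figure D1:**
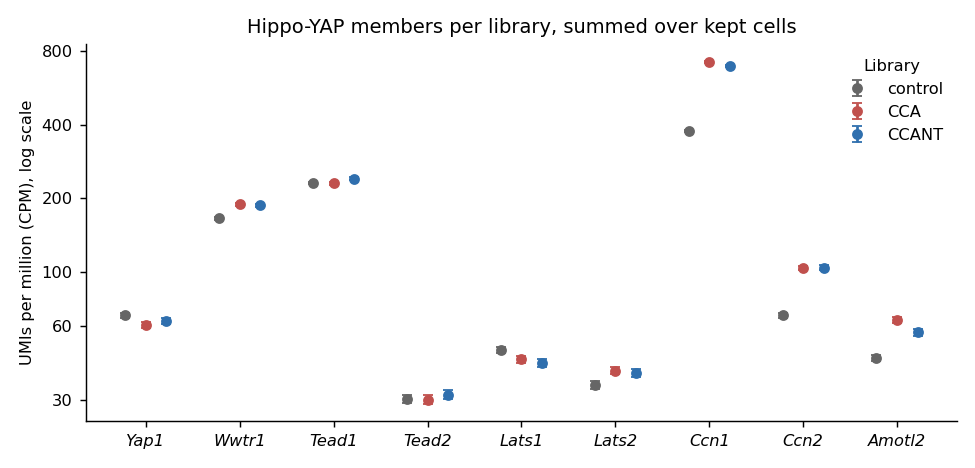
Level of each of 9 Hippo-YAP members in the kept cells of each library, in CPM on a log axis. Points are sums over all kept cells of 1 library and bars are exact 95% Poisson intervals. *Ccn1*, *Ccn2* and *Amotl2* lie apart from the control in both treated libraries, while the coactivators, TEAD genes and kinases lie close together in all 3. Levels are to be compared between libraries for 1 gene and not between genes.

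Of the 9 members that passed the filter on low values, 2 (*Ccn1* and *Ccn2*) were at least 1.5-fold higher in CCA than in control and 0 were lower. *Ccn2* lay close to that limit and fell short of it with median-of-ratios scaling (log2 ratio 0.56), with TMM-style scaling (0.57) and in Müller glia clusters without the tdTomato requirement (0.53). Over all 11743 genes that passed, 5.52% were higher and 1.38% lower by that measure. The same 2 members were higher in CCANT than in control, where 5.44% of all genes were higher and 3.06% lower. *Ccn2* fell short there in cells with Y-linked UMIs in both libraries (0.55). Both comparisons use the same control library. Rod markers moved with these comparisons: the 10 rod genes, all above 0, summed to 334.7 CPM in the control, 962.8 in CCA and 1790 in CCANT kept cells, and their part in the member ratios was not tested. Without both rod-led clusters the same 2 members passed in each comparison. The share of all genes for that set is not given, so this count is not read as a result about the members. That setting leaves in any rod transcripts of other cells. Between CCANT and CCA, 0 members passed the limit in either direction, with 1.52% of all genes higher and 2.46% lower. The largest difference there was that of *Amotl2*, with a log2 ratio of -0.17 (-0.23 to -0.11). The median log2 ratio of the 9 members was 0.19 in CCA over control, 0.16 in CCANT over control and -0.01 in CCANT over CCA, beside 0.05, 0.02 and -0.03 for all genes tested. *Ccn1* stood among the 2.62% of tested genes with the highest ratio of CCA over control, *Ccn2* among the top 4.78% and *Amotl2* among the top 6.44%.

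The libraries also differ in the sex of the mice. By Y-linked UMIs and *Xist*, 3505 control cells were male and 0 female, 3859 CCA cells were female and 0 male, and the CCANT library held 1183 male and 1718 female cells. In male cells of CCANT over control, *Ccn1* rose from 376.3 to 710.0 CPM (log2 ratio 0.92, 0.89 to 0.94), so the difference was as large within 1 sex. *Ccn2* was at 66.7 CPM in the male control cells and 97.9 in the male CCANT cells (0.55, 0.48 to 0.62), which fell just short of 1.5-fold. *Amotl2* had a log2 ratio of 0.31 (0.22 to 0.40). Between female and male cells for CCANT, the log2 ratio was -0.08 (-0.11 to -0.05) for *Ccn1*, 0.16 (0.09 to 0.23) for *Ccn2* and 0.08 (-0.02 to 0.18) for *Amotl2*. For CCA over control no cells of like sex were at hand, so sex and treatment cannot be told apart in that comparison.

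*Ccn1* is also an immediate-early gene, that is, a gene switched on within minutes by stress or growth signals and during tissue dissociation. A list of 30 such genes (among them *Fos*, *Egr1* and *Atf3*) summed to 5417 CPM for control, 9846 for CCA and 9438 for CCANT cells, and 23 of the 28 that passed the filter were at least 1.5-fold higher in CCA than in control, with a median log2 ratio of 1.09, beside 5.52% and a median of 0.05 for all genes tested. In CCANT over control, 18 of 28 were higher, beside 5.44% of all genes. Across single cells, the share of *Ccn1* UMIs correlated with that of the list with a Pearson r of 0.49 over 3758 control cells, 0.61 over 3890 CCA cells and 0.58 over 3278 CCANT cells. For *Ccn2* r was between 0.18 and 0.21, for *Amotl2* between 0.14 and 0.21, and for *Yap1* between -0.06 and 0.00. These values describe cells of 1 library, which share its depth and handling.

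Cells of the 3 libraries were therefore set side by side in 3 groups of immediate-early level with common limits. Common limits do not make the levels within a group alike, and the level of each library within a group is not given here. The ratios below are thus not matched for immediate-early level. Among cells of the lowest group (2118 control and 830 CCA cells), *Ccn1* was at 254 CPM for control and 247 for CCA, a log2 ratio of -0.04 (-0.09 to 0.01). In the middle group it was at 458.2 and 563.9 CPM (0.30, 0.27 to 0.33), and in the highest group, with 320 control and 1851 CCA cells, at 801.6 and 1053 CPM (0.39, 0.36 to 0.43). The difference in *Ccn1* was smaller within each group than over all cells. How much of it would be left at equal immediate-early level was not tested. For *Ccn2* the same log2 ratio was 0.01 (-0.10 to 0.13), 0.07 (-0.01 to 0.15) and 0.31 (0.21 to 0.41), from the lowest to the highest group. *Amotl2* had 0.36 (0.24 to 0.48), 0.31 (0.22 to 0.41) and -0.03 (-0.16 to 0.09), the reverse order. In CCANT over control, *Ccn1* gave -0.09, 0.31 and 0.30, *Ccn2* gave 0.27, 0.15 and 0.23, and *Amotl2* gave 0.10, 0.11 and -0.17. No ratio of a target gene reached 1.5-fold within a group. The part of dissociation in these differences was not tested.

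**Figure D2:**
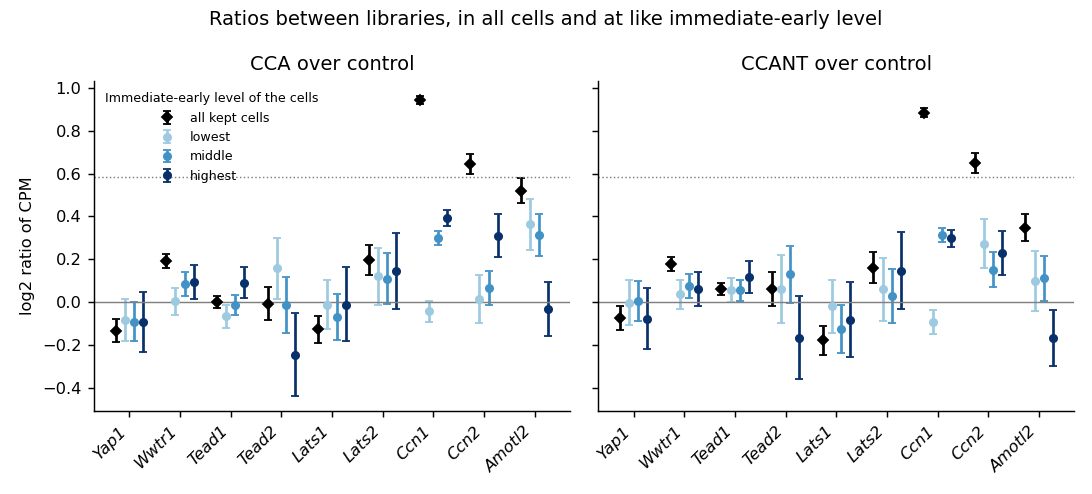
Log2 ratio of CPM for each member in CCA over control and in CCANT over control, over all kept cells (black diamonds) and within the cells of lowest, middle and highest immediate-early level (blue points, light to dark). The words like immediate-early level in the figure title stand for limits common to the libraries, and the ratios are not matched for that level. Bars are exact 95% intervals and the dotted line marks 1.5-fold. For *Ccn1* in CCA over control the diamond lies at 0.94 and the points at -0.04, 0.30 and 0.39.

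Next, the cells with a *Mki67* or *Top2a* UMI were compared with the other cells of their own library, which share its mice and preparation. *Ccn2* was lower in cycling cells of every library. In CCA it was at 85.8 CPM in 752 cycling and 108.4 in 3138 other cells (log2 ratio -0.34, -0.42 to -0.26), in CCANT at 79.7 in 299 and 106.8 in 2979 cells (-0.42, -0.55 to -0.30), and in the control at 44.6 in 42 and 66.6 in 3716 cells (-0.58, -0.99 to -0.19). The cycling control value rests on 54 *Ccn2* UMIs. The clusters led by replication and by mitotic genes, described below, held 0 and 2 control cells. *Tead2* was higher in cycling cells of CCA (36.0 against 28.4 CPM; 0.34, 0.21 to 0.47) and of CCANT (37.8 against 30.7 CPM; 0.30, 0.11 to 0.48). In the control *Tead2* was at 28.1 CPM in cycling and 30.2 in other cells (-0.10, -0.64 to 0.38). *Yap1* was at 55.9 CPM in cycling and 61.6 in other CCA cells, a log2 ratio of -0.14 (-0.24 to -0.04), and had a ratio of -0.12 (-0.26 to 0.03) in CCANT and of 0.05 (-0.28 to 0.36) in the control, at 68.5 against 66.2 CPM. *Amotl2* was higher in cycling CCA cells, at 74.5 against 60.7 CPM (0.30, 0.20 to 0.39), and at 55.5 against 56.6 CPM in CCANT (-0.03, -0.18 to 0.12). The CCA value of *Amotl2* moved with several choices. With the limit for cycling at 2 UMIs it was 0.02, in another set of cells, the Müller glia clusters without the tdTomato requirement, it was 0.00, and with each cell weighted alike, by the mean of the cells' own CPM, it was 0.68. With the limit at 10 UMIs *Amotl2* was lower instead, at -0.43 (-0.64 to -0.22) in CCA and -0.32 (-0.69 to 0.02) in CCANT.

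None of the 9 members reached 1.5-fold between cycling and other cells of either library. Of all genes, 6.97% were higher and 0.441% lower in cycling CCA cells, and 6.33% higher and 0.768% lower in cycling CCANT cells. Without the cycling cells, the ratios of CCA over control were 0.96 for *Ccn1*, 0.70 for *Ccn2* and 0.45 for *Amotl2*, so the higher target levels for CCA were present in cells without a *Mki67* or *Top2a* UMI.

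A single UMI of *Mki67* or *Top2a* is weak evidence that a cell was dividing, so cells of CCA and CCANT were also ordered by how many such UMIs they held. This order is not given for the control, so the control value above has no such check. *Ccn2* fell along this order. In CCA it was at 108.4 CPM in cells with 0, 107.3 with 1, 102.6 with 2 to 9, 45.2 in the 86 cells with 10 to 39 and 9.02 in the 62 cells with at least 40. In CCANT the levels were 106.8, 98.5, 80.9, 42.9 (26 cells) and 8.20 (23 cells). In CPM, *Ccn2* was thus 12.02 times lower in CCA cells with at least 40 UMIs than in those with none, and 13.0 times lower in CCANT. On the log2 scale this is -3.59 (-4.26 to -2.99) and -3.70 (-5.02 to -2.66). These levels are shares of the UMIs of deeper cells, as given below, and not UMIs per cell. The same cells had a lower level of *Amotl2*, at 16.4 CPM in both libraries against 60.7 and 56.6 in cells with none (-1.89, -2.38 to -1.44, and -1.79, -2.66 to -1.04). Yet *Amotl2* was higher in cells with 10 to 39, at 81.2 and 82.7 CPM (0.42, 0.18 to 0.65, and 0.55, 0.13 to 0.94). Along the order, *Amotl2* thus lay above its starting level before it dropped, and *Ccn2* did not.

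The other members changed less than *Ccn2* along this order. The share of all genes that changed as much in cells with at least 40 UMIs is not given here, so these values do not set the members apart from other genes. *Lats2* was at 13.5 CPM in CCA and 21.1 in CCANT cells with at least 40 UMIs, against 40.6 and 38.9 in cells with none (-1.58, -2.13 to -1.09, and -0.88, -1.64 to -0.22). *Ccn1* was at 454.7 and 424.2 CPM, against 731.5 and 697.4 (-0.69, -0.77 to -0.60, and -0.72, -0.87 to -0.57). *Yap1* was at 41.4 and 56.2 CPM, against 61.6 and 63.4 (-0.57, -0.87 to -0.29, and -0.17, -0.61 to 0.24). *Wwtr1* had ratios of -0.23 and -0.32, *Lats1* of -0.02 and 0.07. *Tead2* was highest in cells with 10 to 39 UMIs, at 49.3 CPM in CCA (0.80, 0.49 to 1.09) and 49.0 in CCANT (0.68, 0.12 to 1.18). *Tead1* was at 350.9 CPM in the CCANT cells with 10 to 39 (0.55, 0.36 to 0.74) and 238.5 in the CCA ones (0.05, -0.08 to 0.19).

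**Figure D3:**
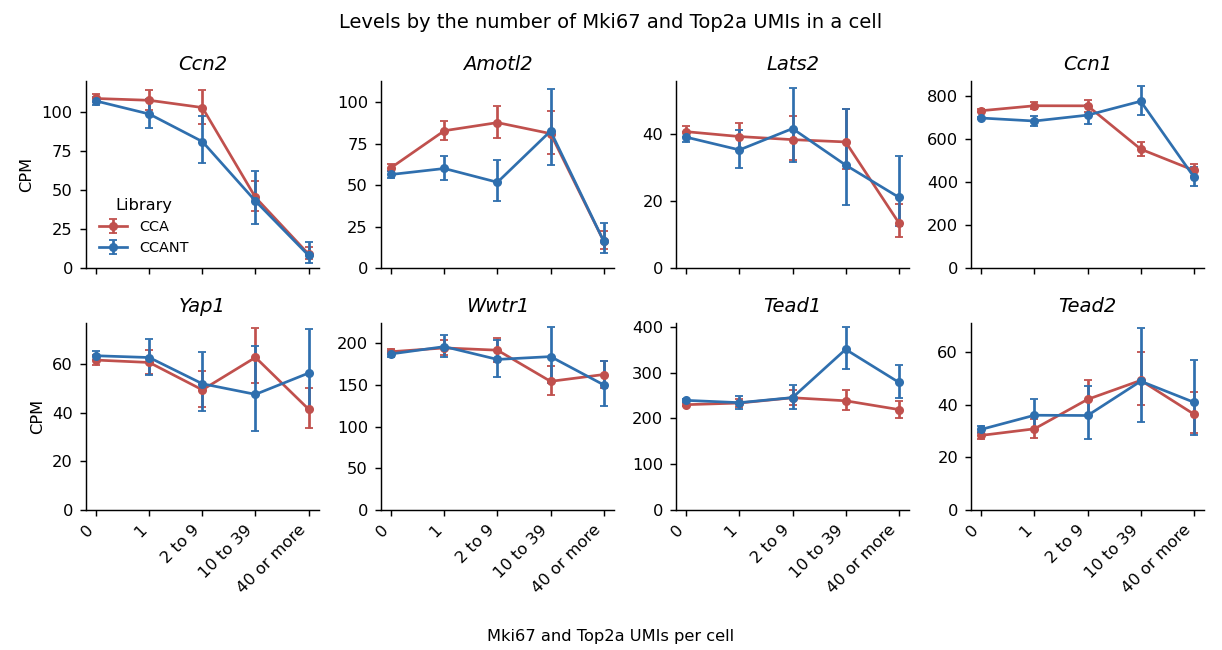
Level (CPM) of 8 members in kept cells of the CCA (red) and CCANT (blue) libraries, by the number of *Mki67* and *Top2a* UMIs in the cell. Bars are exact 95% Poisson intervals and every axis starts at 0. *Ccn2* falls to 9.02 and 8.20 CPM in cells with at least 40, *Amotl2* is above its starting level at 10 to 39 and below it at 40 or more, and *Tead2* is highest at 10 to 39.

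Cells with many proliferation UMIs are also deeper: the median was 39570 UMIs in CCA cells with at least 40 and 20394 in those with none, and 37752 and 20558 in CCANT. A level in CPM is a share of these UMIs, so it is lower in a deeper cell that holds as many UMIs of a gene. Levels per cell along this order are not given here. After kept cells were thinned to 8000 UMIs before the proliferation UMIs were counted, leaving out those with fewer, *Ccn2* was at 8.51 CPM in the 82 CCA cells with at least 10 and 108.9 in those with none, and at 7.55 in 27 CCANT cells against 106.4. Thinning was used here only to choose the cells, and the *Ccn2* levels are from all UMIs of the chosen cells. These values thus do not separate the drop from depth, whose part was not tested. Several marker lists were lower in the same direction. From cells with none to cells with at least 40 proliferation UMIs, counted without thinning, the MG list went from 27865 to 10649 CPM in CCA and from 29144 to 13520 in CCANT, and the immediate-early list from 10010 to 5023 and from 9444 to 5094. The astrocyte list went from 84.3 to 13.5 CPM in CCA and from 107.6 to 24.6 in CCANT, with *Gfap* from 77.7 to 10.7 and from 100.04 to 22.3. The pericyte list went from 149.8 to 70.9 CPM in CCA and from 169.9 to 66.8 in CCANT. The part of these lists in the *Ccn2* values was not tested. Counted without thinning, *Ccn2* was at 25.1 CPM in CCA cells with at least 10 and 23.2 in CCANT, levels 4.32 and 4.60 times lower than in cells with none. *Ccn2* and *Lats2* were then the members at least 1.5-fold lower in each library and 0 were higher, where 16.1% of all genes were lower and 22.4% higher in CCA, and 16.2% lower and 22.6% higher in CCANT. *Ccn2* was among the 0.514% of 12072 tested genes that fell most in CCA and the 0.664% of 12052 in CCANT. The other members that were lower in both libraries stood out less. For *Lats2*, 11.5% of tested genes in CCA and 14.9% in CCANT fell at least as much, and for *Ccn1* 17.1% and 29.1%. For *Amotl2* these shares were 21.6% and 26.7%, for *Yap1* 28.8% and 29.2%, and for *Wwtr1* 29.9% and 34.4%. *Tead2* was higher in both. This limit of 10 was chosen after the data had been seen.

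The kept cells formed 10 clusters. *Ccn1* in control cells was at 263.4 CPM in the largest cluster, led by *Lama2* and *Grin2b*, and at 290.5 in a cluster led by the interferon-induced *Irgm2*, which held 1312 control, 237 CCA and 62 CCANT cells. Another interferon cluster, led by *Cxcl10*, had 553.0 CPM in its 879 control cells. In each library *Ccn1* was highest in a cluster led by *Fosl1*, *Flnc* and *Gfap*, the last a gene of reactive glia, at 583.9, 1066 and 949.9 CPM (67 control, 360 CCA and 542 CCANT cells). *Wwtr1* was also highest there in each library, at 288.2, 297.7 and 221.7 CPM. *Tead1* reached 386.1, 311.7 and 273.8 CPM, highest in the control and CCA libraries, while in CCANT it was higher (342.9 CPM) among the 42 cells of the mitotic cluster described next. *Yap1* did not stand out there, at 64.9, 63.0 and 60.5 CPM. The few *Ankrd1* UMIs of the kept cells were all in this cluster. Since the clusters were made from these same genes, these levels are a description.

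In the cluster led by replication genes such as *Mcm6*, *Tead2* was at 59.9 CPM in 169 CCA and 48.0 in 62 CCANT cells, the highest level of that gene in each of these libraries. *Ccn2* was at 51.4 and 61.6 CPM there. In the cluster led by *Cenpf* and *Top2a*, genes of G2 and mitosis, *Ccn2* was at 27.8 CPM in 170 CCA and 17.5 in 42 CCANT cells, *Tead2* was at 29.6 and 39.1, and *Amotl2* at 86.0 and 55.8. *Ccn2* was also the least evenly spread member. The tenth of cells that were richest in *Ccn2* held 54.6% of its UMIs for control, 54.8% for CCA and 53.2% for CCANT, and for the other members apart from *Ankrd1* that share was between 24.7% and 42.2%.

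To see in which cell classes of these libraries the genes are transcribed, all cells of good quality were clustered. No tdTomato transcript was demanded, and classes were named from marker genes. All of these cells had passed the tdTomato+ sort, so the neurons among them are no even sample of the retina. The paper puts its own rod cluster down to leaky tdTomato in native rods. As a rough reference for free RNA the 9 MG markers were used, though not each of them need be absent from neurons. Their sum was in rod-like cells at 6.07% of its MG-like level for control, 5.92% for CCA and 7.60% for CCANT, and in bipolar-like cells at 3.99%, 3.49% and 4.48%. In rod-like cells single markers ranged from 2.72% to 7.71%, from 3.25% to 6.95% and from 5.17% to 8.56%. In amacrine-like cells *Dkk3* reached 20.1%, 24.8% and 25.6%, beside 11.4%, 11.5% and 12.1% for the sum. A member at or below the share of the sum is read as background. *Yap1* in rod-like cells (851, 1360 and 1323 cells, median depth 4966 to 5074 UMIs) was at 5.17, 5.56 and 6.17 CPM, or 7.91%, 8.97% and 9.59% of its MG-like level, with intervals that reach down to 5.07%, 6.43% and 7.01%. That is at or close to background.

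*Wwtr1* was not at background in rod-like cells. It was at 50.2 CPM for control, 73.9 for CCA and 70.0 for CCANT cells, or 30.5% (26.7 to 34.7), 38.8% (35.5 to 42.2) and 37.3% (34.1 to 40.7) of its MG-like level. In rod-like cells with at least 8000 UMIs, thinned to that number, *Wwtr1* was seen in 26.0% of 50 control, 44.7% of 94 CCA and 30.5% of 105 CCANT cells, and *Yap1* in 8.00%, 2.13% and 1.90%. These are the deepest of 851 control, 1360 CCA and 1323 CCANT rod-like cells, and most cells are left out. Before thinning, over all rod-like cells, these shares were 16.6%, 24.3% and 24.8% for *Wwtr1* and 2.70%, 2.79% and 3.33% for *Yap1*.

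Bipolar-like cells (335, 449 and 600 cells) had the opposite pattern. *Yap1* was at 21.3, 18.9 and 20.7 CPM there, 32.5% (27.0 to 38.8), 30.5% (25.5 to 36.2) and 32.1% (27.6 to 37.1) of its MG-like level, and *Wwtr1* at 2.72, 4.79 and 7.40 CPM, 1.65%, 2.51% and 3.94% of its own. Rod-like cells thus held *Wwtr1* with *Yap1* close to background, and bipolar-like cells *Yap1* with *Wwtr1* at background, in all 3 libraries. *Tead1* was above background in both, at 99.8, 100.4 and 88.5 CPM in rod-like and 28.8, 31.0 and 35.8 in bipolar-like cells, while *Tead2* in bipolar-like cells was at 0.851, 0.845 and 1.22 CPM, at background.

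The kinases were transcribed in neurons as well. *Lats1* was at 71.8 CPM for control, 68.8 for CCA and 60.6 for CCANT rod-like cells, which is 150.4%, 159.4% and 143.8% of its MG-like level, and *Lats2* was at 52.6, 48.7 and 51.2 CPM. In bipolar-like cells *Lats1* was at 46.8, 39.9 and 39.2 CPM, or 98.0%, 92.3% and 93.0% of its MG-like level, and *Lats2* at 96.8%, 79.0% and 85.1%. The kinases were thus above their MG-like level in rod-like cells and at or somewhat below it in bipolar-like cells.

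*Ccn1* in rod-like and bipolar-like cells stayed below the share of the MG markers. In rod-like cells it was at 16.0, 38.1 and 35.7 CPM, or 4.20%, 5.16% and 5.27% of its MG-like level. In bipolar-like cells it was at 7.66, 22.4 and 17.0 CPM, or 2.02%, 3.04% and 2.51%. The MG-like level was 379.6, 737.8 and 676.8 CPM. At these shares the *Ccn1* of both classes is read as background, but its share was higher in the treated libraries than in the control, while that of the MG markers was lower in CCA. The immediate-early list was higher there too, at 839.6, 1168 and 1310.1 CPM in rod-like and 599.2, 765.1 and 756.2 CPM in bipolar-like cells, so free RNA and transcription in these cells cannot be told apart for the difference between libraries. In amacrine-like cells *Ccn1* was at 39.2, 71.5 and 75.2 CPM, and at 36.3, 39.3 and 40.2 CPM once the 5% of cells with the highest doublet score were left out.

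Pericyte-like cells, the contractile cells of capillaries, held more *Lats2* than MG-like cells, as did endothelial-like cells. In pericyte-like cells *Lats2* was at 106.0, 108.8 and 131.7 CPM (55 control, 98 CCA and 40 CCANT cells), which is 3.09, 2.74 and 3.46 times its MG-like level (log2 ratios 1.63, 1.30 to 1.94; 1.45, 1.23 to 1.67; and 1.79, 1.45 to 2.12). *Yap1* was at 68.6, 56.8 and 82.7 CPM and *Wwtr1* at 208.3, 195.3 and 263.4 CPM there, levels near those of MG-like cells. *Ccn1* was at 123.5, 233.4 and 152.0 CPM, and at 116.2, 92.9 and 96.5 CPM without the cells of highest doublet score. The MG markers in these cells summed to 5713, 6776 and 7633 CPM with those cells and 4358, 2200 and 5317 without them, so both *Ccn1* and the MG markers of the CCA pericyte-like cells were lower once those cells were left out, and *Ccn1* was then no higher in CCA than in the control. Endothelial-like cells (25, 47 and 31 cells) had the highest *Wwtr1* of the classes, at 387.7, 451.4 and 472.7 CPM. Their *Lats2* was at 93.0 CPM for control and 119.6 for CCA, or 2.71 and 3.01 times its MG-like level.

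*Ccn2* was highest in astrocyte-like cells, which like MG express Glast. It was at 516.2, 1153 and 1216 CPM (15 control, 33 CCA and 143 CCANT cells), against 68.1, 109.0 and 106.8 in MG-like cells, or 7.58, 10.6 and 11.4 times as much. The CCA and CCANT levels in astrocyte-like cells were 1.16 (0.98 to 1.34) and 1.24 (1.07 to 1.40) above the control on the log2 scale, from few control cells. None of the authors' kept cells lay in that cluster, and in kept cells the astrocyte marker *Pax2* was at 0.0210, 0.228 and 0.113 CPM. Among kept cells, the astrocyte list as a whole (*Pax2*, *S100b* and *Gfap*) summed to 28.4 CPM for control, 82.2 for CCA and 108.6 for CCANT. *Gfap*, which reactive MG express too, made up 22.8, 75.9 and 101.2 CPM of these sums. The part of astrocytes in the *Ccn2* of kept cells was not tested.

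**Figure D4:**
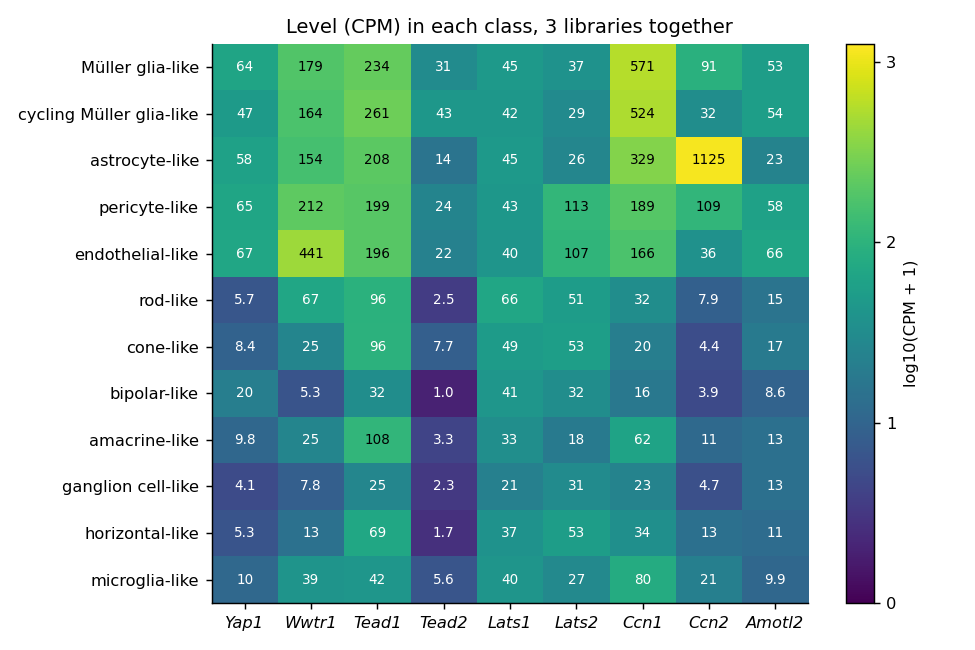
Level (CPM, printed in each cell and coloured as log10(CPM + 1)) of 9 members in each named class, summed over the 3 libraries. Columns are to be read down, from class to class for 1 gene. *Yap1* is high in glia-like and vessel classes and lower in neurons, *Wwtr1* is higher in rod-like than in bipolar-like cells, *Lats2* is highest in pericyte-like and endothelial-like cells and *Ccn2* in astrocyte-like cells.

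Of 35 further genes of the Hippo pathway (among them *Stk3*, *Stk4*, *Nf2*, *Sav1* and *Vgll4*), 32 passed the filter and 1 was at least 1.5-fold higher in CCA than in control, with 0 lower, beside 5.52% higher and 1.38% lower over all genes. That was *Rassf1*, a scaffold that binds the upstream kinases, at 41.0 CPM for control, 64.1 for CCA (log2 ratio 0.65, 0.59 to 0.71) and 45.9 for CCANT. *Rassf1* fell short of the limit with median-of-ratios scaling, with TMM-style scaling, without cycling cells and in clusters named Müller glia. This last setting leaves out the mitotic cluster (214 kept cells) and the *Fosl1*, *Flnc* and *Gfap* cluster (969), which the markers left unnamed. It also leaves out both rod-led clusters. Which of these cells held a call that is lost there was not tested. In CCANT over control it was *Wwc1*, which encodes the LATS activator KIBRA, from 12.05 to 20.7 CPM (0.78, 0.67 to 0.89), where 5.44% of all genes were higher and 3.06% lower, and between CCANT and CCA there were 0. *Wwc1* fell short in clusters named Müller glia and in cells with Y-linked UMIs in both libraries. The median log2 ratio of the list was 0.02 in both comparisons with the control. *Fat1*, an atypical cadherin, was the only one of the 32 past the limit between cycling and other cells of CCA, at 82.3 against 53.7 CPM (0.62, 0.53 to 0.70), where 6.97% of all genes were higher and 0.441% lower, and 0 were in CCANT. *Fat1* fell short with both other scalings, by the mean of the cells' own CPM and in clusters named Müller glia.

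A list of 26 further genes widely used as YAP targets gave a mixed picture. Of the 19 that passed in CCA over control, 2 were higher and 1 lower, and of the 18 that passed in CCANT over control, 2 were higher and 1 lower. Over all genes 5.52% were higher and 1.38% lower in the first comparison, and 5.44% and 3.06% in the second. *Gadd45a*, also a p53 and stress gene, was at 10.2 CPM for control, 24.9 for CCA (log2 ratio 1.29, 1.18 to 1.40) and 19.7 for CCANT (0.95, 0.83 to 1.07). *Birc5* (survivin), itself a mitotic gene, was at 0.545, 16.9 and 6.54 CPM, a log2 ratio of 4.96 (4.56 to 5.39) in CCA over control and -1.37 (-1.53 to -1.22) in CCANT over CCA. It was at 75.9 CPM in cycling and 1.19 in other CCA cells. No call of *Birc5* was left without cycling cells or in clusters named Müller glia, which leave out the mitotic cluster. *Asap1* was at 57.2, 73.0 and 87.7 CPM, past the limit in CCANT over control (0.62, 0.56 to 0.67) and in cycling over other cells of CCA (0.65, 0.57 to 0.73). The call of *Asap1* between libraries was lost with both other scalings, without cycling cells and in clusters named Müller glia, and that in cycling CCA cells with TMM-style scaling, by the mean of the cells' own CPM and in clusters named Müller glia. *Ccnd1* was lower, at 213.3 CPM for control, 135.9 for CCA (-0.65, -0.68 to -0.62) and 129.0 for CCANT (-0.73, -0.76 to -0.69). The vector carries a cyclin D1 cDNA, and whether its transcripts are among these UMIs is not given in the sources used here, so this count does not check the vector. *Nt5e* was lower in cycling cells of CCANT, at 8.80 against 14.2 CPM (-0.69, -1.08 to -0.33), but not past the limit in Müller glia clusters without the tdTomato requirement or in clusters named Müller glia. The median log2 ratio of the list was 0.01 in CCA over control and 0.15 in CCANT over control.

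Over 42 pairs of class and library from 15 classes, the genes whose level followed that of *Yap1* most closely, among 13795 genes, were *Nfib* (Pearson r of log2(CPM + 1) of 0.91), *Cnn3* (0.91), *Emp2* (0.90), *Osmr* (0.90) and *Eln* (0.89). For *Ccn1* they were *Clrn1* (0.96), *Fosb* (0.95), *Nr2e1* (0.95), *Cryab* (0.95) and *Espn* (0.95). Within the members, *Yap1* had an r of 0.80 with *Wwtr1* and *Tead2*, and of 0.30 with *Lats1* and 0.33 with *Lats2*. The classes of 1 library share its free RNA and depth, and these values describe likeness of pattern only.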

How the data were processed

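Single-cell 3' RNA-seq (10x v3.1) was done on papain-dissociated, sorted tdTomato+ retinal cells, with 1 library of pooled retinas per group. The deposited values are raw UMI counts per gene and cell. Per the submitters' processing notes and methods, the authors made these counts with Cell Ranger 6.1.1 on mm10 with tdTomato and GFP sequences added, and intronic reads were counted. The authors also deposited a joint table of filtered cells, which left out sex-linked genes. That table was used to pick the kept cells, and their counts were taken from the library matrices.

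UMIs were summed over the cells of each library and given as CPM. Genes with a mean of at least 5 CPM and at least 50 UMIs were tested for a ratio past 1.5-fold, which is what called means. Ratios have exact 95% intervals from Poisson counts. UMI counts of 1 library do not measure variation between mice. The ratio step was run on simulated Poisson counts with known folds, drawn around the control sums. The intervals rest on the same model, so that run checks the calculation only and holds no variation between cells, mice or libraries.

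The wider set held cells with 2000 or more genes, up to 100000 UMIs and a mitochondrial share of up to 15% (9579 control, 10521 CCA and 10890 CCANT cells). Cells were clustered with Leiden (leidenalg 0.10.2, 20 neighbours, 2000 variable genes), with 7 components and resolution 0.3 for kept cells and 20 components and resolution 0.5 for the wider set. The rule that names classes from markers was set after the clusters were seen, and classes made from the same genes may differ from the authors' own. Scrublet marked 439 CCA cells (4.17%) and 0 cells in the other libraries, so its own call was not used and the 5% of cells with the highest score were left out as an alternative. Cells with at least 3 sex-linked UMIs of 1 sex and at most 1 of the other were assigned a sex. Thinning was to 8000 UMIs and left out kept cells with fewer (36 control, 103 CCA and 53 CCANT cells). The immediate-early groups use common limits over all 3 libraries and were set after the data were seen.

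The members and lists were chosen with earlier results of these data known. Genes of the other lists are named where they passed 1.5-fold between libraries, and *Fat1*, *Nt5e* and the cycling values of *Asap1* and *Birc5* were added after their values were seen. The 5 genes most like *Yap1* and *Ccn1* are named by Pearson r among genes with at least 20 CPM in 1 class and library. Alternatives changed the scaling, the cells used, the fold, the filter, the gate for cycling cells and the clustering. The setting of clusters named Müller glia leaves out every mixed or unnamed cluster of kept cells, the mitotic cluster among them. Python 3.11.15, numpy 2.4.6, scipy 1.17.1, pandas 2.3.3, scanpy 1.11.5, scikit-learn 1.9.0 and matplotlib 3.10.9 were used.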

Additional observations from a re-analysis of the deposited data

Results flagged for a closer look

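The log2 ratio of cycling over other cells had opposite signs in the CCA and CCANT libraries for *Amotl2*, at 0.2956 in CCA and -0.03 in CCANT, and for *Lats1*, at -0.0156 in CCA and 0.01 in CCANT. The difference was not tested for either gene, since each library is a single sample. For *Lats1* both intervals (-0.13 to 0.10 and -0.16 to 0.18) span 0. The opposite signs of *Amotl2* did not hold under every choice. From 10 UMIs it was lower in both libraries, at -0.43 in CCA and -0.32 in CCANT, and in Müller glia clusters without the tdTomato requirement the ratios were 0.00 and 0.04. Over the alternatives other than the limit of 10 UMIs its CCA ratio ranged from 0.00 to 0.68. Between cycling cells of CCANT and of CCA, *Amotl2* had a log2 ratio of -0.43 (-0.59 to -0.26).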

How the results depend on the processing

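No paired analysis was possible because each group is 1 library, and for the same reason no library could be left out. Leaving out cells that Scrublet marks was not run, since it marked 0 cells in 2 libraries. Of the alternatives for the counts of members, 48 stayed within 1.5 times the main count and 13 did not. Of 549 alternative values for the members' log2 ratios, 431 stayed within the counting interval of the main value, 118 moved outside it and 32 changed sign. In 31 of these 32 both values lay within 0.1 of 0. The remaining one was *Amotl2* in cycling over other CCA cells, which turned from 0.30 to -0.43 (-0.64 to -0.22) with cycling read from 10 UMIs. The causes of these shifts were not tested. The log2 ratio of CCA over control ranged from 0.86 to 1.02 for *Ccn1* and from 0.53 to 0.71 for *Ccn2*, and the call of *Ccn2* rests close to the 1.5-fold limit.

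The 2 members called in CCA over control became 1 with median-of-ratios scaling, 1 with TMM-style scaling, 1 in Müller glia clusters without the tdTomato requirement and 0 at 2-fold. The 2 called in CCANT over control became 0 at 2-fold and 1 in cells with Y-linked UMIs. The 0 called in cycling CCA cells became 1 by the mean of the cells' own CPM, 1 in the wider Müller glia clusters, 1 with cycling read from 2 UMIs and 2 from 10 UMIs. The 0 called in cycling CCANT cells became 1 in the wider clusters, 1 from 2 UMIs and 2 from 10 UMIs. From 10 UMIs, 22.4% of all genes were higher and 16.1% lower in CCA, and 22.6% and 16.2% in CCANT. For the other alternatives the share of all genes is not given here, so these counts and those below are not read as results about the lists.

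For the other Hippo genes, the 1 called in CCA over control became 0 with median-of-ratios scaling, 0 with TMM-style scaling, 0 without cycling cells, 0 in clusters named Müller glia, 0 at 2-fold, 2 in the wider clusters and 2 with no minimum CPM. The 1 in CCANT over control became 0 in clusters named Müller glia, 0 at 2-fold, 0 in cells with Y-linked UMIs and 3 with no minimum CPM, and the 0 in CCANT over CCA became 2 with no minimum CPM. In cycling CCA cells the 1 became 0 with median-of-ratios scaling, 0 with TMM-style scaling, 0 by the mean of cells' CPM, 0 in clusters named Müller glia, 0 at 2-fold, 2 after thinning, 3 from 2 UMIs and 5 from 10 UMIs. In cycling CCANT cells the 0 became 1 in the wider clusters, 1 after thinning, 1 with no minimum CPM, 3 from 2 UMIs and 6 from 10 UMIs. The counts from 10 UMIs stand beside 22.4% of all genes higher and 16.1% lower in CCA, and 22.6% and 16.2% in CCANT.

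For the other YAP targets, the 3 called in CCA over control became 6 with no minimum CPM, and the 3 in CCANT over control 0 at 2-fold and 6 with no minimum CPM. The 1 in CCANT over CCA became 0 without cycling cells, 0 in clusters named Müller glia and 2 with no minimum CPM. In cycling CCA cells the 2 became 1 at 2-fold, 1 with TMM-style scaling, 1 by the mean of cells' CPM, 0 in clusters named Müller glia, 4 from 2 UMIs and 9 from 10 UMIs. In cycling CCANT cells the 2 became 1 at 2-fold, 1 in the wider clusters, 0 in clusters named Müller glia, 4 after thinning, 4 from 2 UMIs and 8 from 10 UMIs. Beside the counts from 10 UMIs, 22.4% of all genes were higher and 16.1% lower in CCA, and 22.6% and 16.2% in CCANT.

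At Leiden resolution 1.0, rod-like levels in CPM were 45.2 (*Ccn1*, CCA), 18.3 (*Amotl2*, CCA) and 40.3 (*Ccn1*, CCANT), and bipolar-like *Tead1* was 34.5 in the control and 39.6 in CCA. Amacrine-like control cells then had *Yap1* 12.9, *Wwtr1* 40.1, *Tead1* 85.0, *Lats2* 19.1, *Ccn1* 53.7, *Ccn2* 14.3 and *Amotl2* 11.9, CCA cells *Wwtr1* 31.3, *Tead1* 83.4 and *Ccn1* 89.6, and CCANT cells *Wwtr1* 27.0, *Tead1* 91.2 and *Ccn1* 99.8. Without the highest doublet scores, amacrine-like CCA cells had *Yap1* 5.97, *Wwtr1* 11.2, *Tead1* 83.4, *Tead2* 1.59, *Ccn1* 39.3, *Ccn2* 7.07 and *Amotl2* 11.1, and CCANT cells *Yap1* 6.76, *Wwtr1* 17.5 and *Ccn1* 40.2. Ganglion-like CCA *Tead1* was then 15.3, pericyte-like CCA *Tead1* 157, *Lats2* 144, *Ccn1* 92.9 and *Ccn2* 125, and pericyte-like CCANT *Ccn1* 96.5.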
